A study of Mus musculus with 24 samples.

Results

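Ribosome biogenesis factors, the proteins that make ribosomal RNA and build it into ribosomal subunits, were examined in splenic B cells together with the transcription factor gene Myc. The group held 42 named genes, taken by symbol from tables of 23234 genes. Of these, 41 had a row in both tables, and all 41 passed the filter on low values in both. Noc2l had no row under that name and was not analysed here. The samples were RNA-seq libraries of primary B cells taken fresh from the spleen of C57BL/6 mice. Control libraries had the genotype control. The libraries called DKO here had the genotype Tet2/Tet3-deficient and the title words Tet DKO (CD93- cells) or Tet KO (CD93+ cells); Tet2 and Tet3 encode enzymes that oxidise methylated cytosine in DNA. There were 4 groups of 3 libraries, control and DKO in CD93- and in CD93+ cells, and the other 12 of 24 samples were not analysed here. The labels gave no age, sex, allele, Cre driver or treatment. They did not say whether replicates came from separate mice, and the tests below therefore weigh a difference only against the spread between the libraries, which may be technical.

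Ribosomes are made in the nucleolus, where RNA polymerase I transcribes a long precursor of ribosomal RNA. Small nucleolar ribonucleoproteins (snoRNPs) guide its chemical modification, box C/D particles methylation and box H/ACA particles the conversion of uridine to pseudouridine, while assembly factors cut and fold it into the small and the large subunit. Myc binds the E-box CACGTG as a dimer with Max and is known to raise the transcription of many of these genes. Resting B cells are small, and B cells that are activated enlarge their nucleoli and make more ribosomes before they divide.

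Promoters of the members are shown first because the E-box can be looked for in them. RefSeq promoter windows on GRCm38.p6, a different build from that of the expression files, covered 250 bases before to 50 bases after the gene start and were matched by symbol for 36 of 42 members. The E-box CACGTG, which reads the same on both strands, was in the window of 20 of 100 other pathway genes (20%), from lists described below. Among the members it was in the window of 6 of these 36 genes (16.7%). The share was 8.09% of 27025 genes with a window and 12.3% of 7764 genes tested in CD93-negative cells. In 3 of the 6 it lay wholly before the start, and 60 bases around it are given 5′ to 3′ in the direction of the gene, with the E-box in capitals.
Imp4 (chr1:34439681-34439740, plus strand): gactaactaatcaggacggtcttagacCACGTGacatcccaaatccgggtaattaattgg
Nop2 (chr6:125131796-125131855, plus strand): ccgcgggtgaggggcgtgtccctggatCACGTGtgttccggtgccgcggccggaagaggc
Utp18 (chr11:93885767-93885826, minus strand): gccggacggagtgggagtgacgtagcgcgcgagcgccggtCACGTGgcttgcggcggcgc
The E-box began 121 bases before the start of Imp4, 60 before that of Nop2 and 20 before that of Utp18. In Pes1, Utp20 and Wdr43 it lay after the start. These matches are letters in a window and say nothing of binding. Of the 6 genes, Pes1 alone passed the test in CD93-negative cells described below. There 29.3% of measured members and 18.7% of all tested genes were called higher. Nop2 and Utp18 passed in CD93-positive cells after rescaling, where 46.3% of measured members and 11.4% of all tested genes were called higher. Several members also host small nucleolar RNAs. In the GENCODE M21 annotation, 6 of 42 members (14.3%) held a snoRNA gene on their own strand, against 1.90% of 9350 genes tested in CD93-negative cells. Nop56 held 5, Nop58 held 4, Ncl, Gnl3 and Wdr43 held 3 each and Dkc1 held 1.

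Values are FPKM, fragments scaled by transcript length and library, so counts and depth are unknown. A change is the DKO mean less the control mean of log2(FPKM + 1), which understates the change of low genes. It was tested with limma on all 10960 CD93-negative or 11250 CD93-positive genes with 1 FPKM or more in 3 libraries, and called at an adjusted p under 0.05. Summed FPKM ran from 342368 to 394709 in control and from 424032 to 463987 in DKO CD93-negative libraries, without overlap. It ran from 523898 to 597968 in CD93-positive libraries other than DKO replicate 3, which stood apart at 309359. The upper quartile over tested genes was 18.7 to 24.3 FPKM in control and 25.1 to 26.1 FPKM in DKO CD93-negative libraries. The deposited values thus differed in scale between the groups there. Because a shift of a whole library moves every member, each change is also given after the libraries of a table were set to the same upper quartile over tested genes ("after rescaling"). The median log2 change of all tested genes was 0.11 in CD93-negative and -0.22 in CD93-positive cells as deposited, and -0.083 and -0.011 after rescaling. Tet2 was at 7.75 ± 1.26 against 9.16 ± 0.917 FPKM in CD93-negative and at 3.25 ± 0.192 against 2.55 ± 0.905 FPKM in CD93-positive cells (control against DKO, mean ± SD, n = 3), and Tet3 at 17.97 ± 2.82 against 15.4 ± 0.439 FPKM and 13.1 ± 1.01 against 7.14 ± 3.08 FPKM. None of these 4 differences passed limma's adjusted p as deposited, and 1 (Tet3 in CD93-positive cells) had an unadjusted p under 0.05. After rescaling Tet3 was lower in both populations (log2 changes -0.41 and -0.66, limma adjusted p = 0.0018 and 0.015) and Tet2 in neither. A value per gene includes exons outside any deleted part, so it checks no label.

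The libraries were also read for B cell and other markers. All 10 B cell markers were present, with a summed level of 3595 to 4468 FPKM in control and 3861 to 4042 FPKM in DKO CD93-negative libraries, and of 3958 to 5229 and 1847 to 3832 FPKM in CD93-positive libraries. Of these 10, 0 were called higher and 1 lower in each population as deposited. After rescaling 6 were called lower in each (median log2 changes -0.28 and -0.38), where 23.8% and 9.34% of all tested genes were. Cd93 was at 4.34 ± 0.408 FPKM in CD93-negative and at 53.9 ± 5.22 FPKM in CD93-positive controls, in tables that were scaled separately. In CD93-positive cells, red cell markers (8 genes) reached 10.8% and 10.5% of all FPKM in control replicates 1 and 2, against 2.66% in control replicate 3 and 1.07% to 2.69% in DKO libraries. Control replicates 1 and 2 of that table had more of the Y-linked gene Ddx3y than of Xist, as male cells do, and the other 4 libraries had the reverse, so sex and genotype are partly bound together there. Summed neutrophil markers (7 genes) were 1599 to 2229 FPKM in control and 444 to 1400 FPKM in DKO CD93-positive libraries. After rescaling 5 of 7 were called lower, against 9.34% of all tested genes. Summed NK cell markers (9 genes) were 19.9 to 39.7 FPKM in control and 28.9 to 86.3 FPKM in DKO CD93-positive libraries. Of 8 tested, 3 were called higher there as deposited and 5 after rescaling (median rescaled log2 change 1.06), and in CD93-negative cells 1 of 8 in either case. As deposited and after rescaling, 1.67% and 11.4% of all tested genes were called higher in CD93-positive cells. In CD93-negative cells these shares were 18.7% and 17.1%. In CD93-negative cells summed red cell markers were 42.5 to 60.4 FPKM in control and 170 to 199 FPKM in DKO libraries, and summed T cell markers (12 genes) 32.9 to 55.5 and 64.1 to 71.002 FPKM (7 of 11 tested called higher as deposited, 6 after rescaling). Summed macrophage markers (8 genes) were 16.5 to 19.04 FPKM in control and 19.6 to 22.2 FPKM in DKO CD93-negative libraries. Of 3 tested, 2 were called higher there as deposited and 2 after rescaling. In CD93-positive cells these sums were 39.4 to 118 and 52.05 to 99.4 FPKM, and 0 of 7 tested were called in either case. The part of all these marker differences in the results below was not tested, except where values with and without them are given.

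In CD93-negative B cells, Myc and many ribosome biogenesis factors were higher in DKO libraries, by up to 1.67-fold. Of 41 members 12 rose and 0 fell (29.3%), where 18.7% of all tested genes were called higher and 2.79% lower. The 12 were Myc, Npm1, Npm3, Ncl, Polr1c, Nhp2, Nop10, Noc4l, Pes1, Wdr12, Nop16 and Gnl3. The log2 change of all 41 was above 0, from 0.033 to 0.74, with a median of 0.36. In bulk RNA, more cells with high levels of these genes and more of their RNA per cell cannot be told apart. After rescaling 13 rose and 0 fell (31.7%), where 17.1% of all tested genes were called higher and 23.8% lower. The rescaled changes ran from -0.16 to 0.51 with a median of 0.15, and 31 of 41 were above 0. Every DKO library was above every control library in 29 of 41 members, against 31.5% of all tested genes, and below in 0, against 7.43%. After rescaling these counts were 18, against 21.4%, and 1 (Noc3l), against 33.3%.

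The count of calls in CD93-negative cells moved with single libraries. It was 20 without control replicate 2, 8 without control replicate 3, 7 without DKO replicate 1, 4 without DKO replicate 2 and 4 without DKO replicate 3. In the same order, 23.2%, 15.5%, 15%, 13.1% and 11.4% of all tested genes were called higher. Without DKO replicate 2 or 3, the members' share was thus below that of all tested genes. Without control replicate 1 the count lay between these, where 19.5% of all tested genes were called higher. After rescaling the count was 8 to 13 whichever library was left out, 8 without DKO replicate 3, in alternatives chosen after the data were seen. In those fits 13.3% to 16.1% of all tested genes were called higher. Npm1, Nhp2 and Noc4l passed in all 6 such fits with the authors' scaling. Myc, Ncl, Npm1, Npm3, Nhp2, Noc4l and Pes1 passed in all 6 after rescaling.

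**Figure D1:**
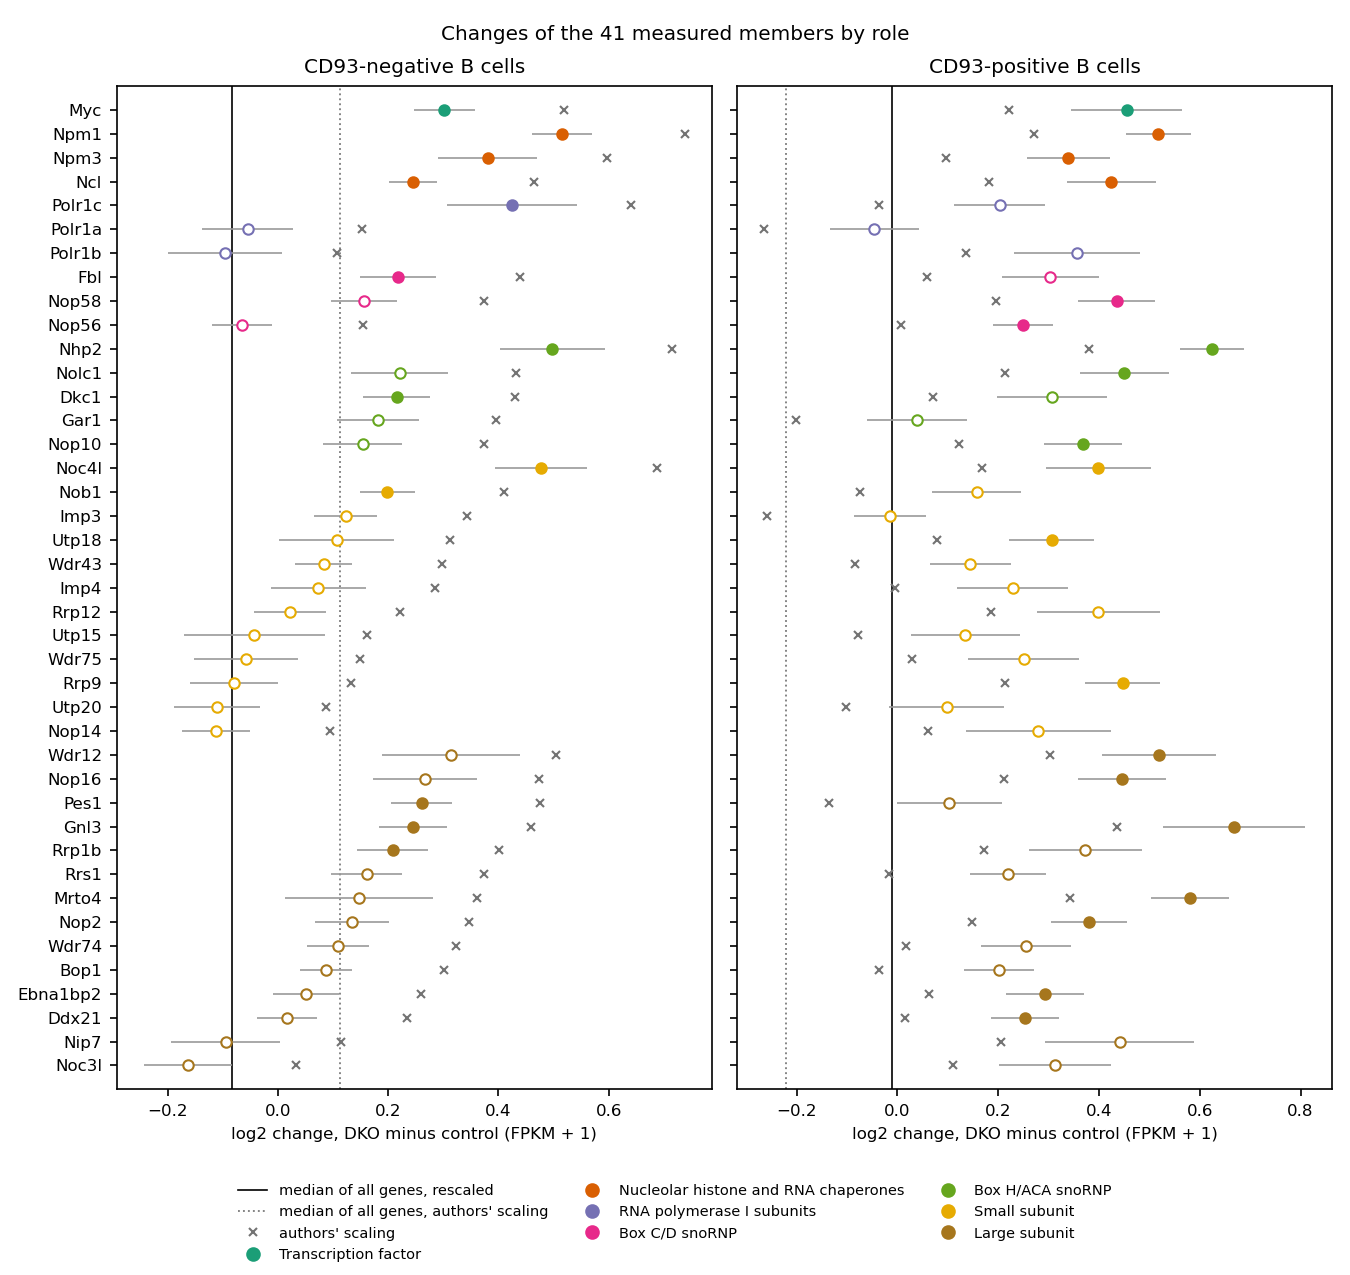
Log2 change (x axis, DKO minus control) of each of 41 members, grouped by role, in CD93-negative (left) and CD93-positive (right) cells; circles with ± 1 SE are values after upper quartile rescaling, filled where the adjusted p was under 0.05, crosses are values with the authors' scaling, and vertical lines are medians of all tested genes. In CD93-negative cells every cross lies above 0 but 10 circles lie below it, and in CD93-positive cells every circle lies to the right of its cross.

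Myc, which drives growth and ribosome production, was at 24.7, 28.5 and 29.1 against 39.1, 40.2 and 39.8 FPKM in CD93-negative cells, given here and below as control replicates 1 to 3 against DKO replicates 1 to 3. The groups did not overlap, and the 3 DKO values lay closer together than the controls (log2 change 0.52, SE 0.12, limma adjusted p = 0.0102). After rescaling the change was 0.30 (adjusted p = 0.00535). Myc lost its call without DKO replicate 2 and without DKO replicate 3 under the authors' scaling.

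All 3 nucleolar chaperones rose in CD93-negative cells, where 18.7% of all tested genes were called higher. Npm1, nucleophosmin, which carries ribosomal proteins and histones, had the highest level of any member, 195, 242 and 224 against 341, 368 and 392 FPKM (log2 change 0.74, SE 0.14, adjusted p = 0.0023). Its relative Npm3 was at 22.8, 33.4 and 26.3 against 37.7, 40.3 and 47.2 FPKM (log2 change 0.60, adjusted p = 0.0166). Nucleolin, Ncl, which binds nascent ribosomal RNA, was at 39.6, 53.8 and 52.4 against 64.4, 66.8 and 69.3 FPKM (log2 change 0.46, adjusted p = 0.0347). In all 3 genes the groups did not overlap, before or after rescaling. Every DKO library was above every control library in 31.5% and 21.4% of all tested genes. Npm3 and Mrto4 have named processed pseudogenes in GENCODE M21. How reads shared between near-identical copies were assigned is not given in the sources used here, so values of these genes are uncertain to that extent.

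The RNA polymerase I subunits moved unequally in CD93-negative cells, with 1 of 3 called higher (33.3%, against 18.7% of all tested genes). Polr1c, a subunit shared with RNA polymerase III, was at 17.1, 26.97 and 23.2 against 30.6, 41.2 and 33.7 FPKM without overlap (log2 change 0.64, adjusted p = 0.0197). Polr1a, the largest subunit, was at 10.7, 11.5 and 12.6 against 13.1, 13.3 and 12.5 FPKM (log2 change 0.15, adjusted p = 0.448). Polr1b, the other large subunit of the catalytic core, was at 8.83, 11.4 and 9.21 against 11.8, 10.4 and 9.66 FPKM (log2 change 0.11, adjusted p = 0.654). The groups overlapped in Polr1a and Polr1b, and both changes were below 0 after rescaling (-0.055 and -0.096). The difference between Polr1c and the other subunits was not tested.

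Of the box C/D snoRNP proteins 0 of 3 passed limma's adjusted p with the authors' scaling in CD93-negative cells, and 2 had an unadjusted p under 0.05. Of all tested genes 18.7% were called higher there. Fbl, the methyltransferase fibrillarin, was at 66.5, 90.1 and 78.5 against 94.2, 109 and 115 FPKM without overlap (adjusted p = 0.0503), and it passed after rescaling (log2 change 0.22, adjusted p = 0.0426). The core protein Nop58 was at 23.2, 28.8 and 31.2 against 34.2, 35.8 and 37.8 FPKM, also without overlap (log2 change 0.37, adjusted p = 0.0749). Its partner Nop56 was at 46.6, 62.8 and 59.996 against 59.8, 59.5 and 68.4 FPKM, with overlap (log2 change 0.15, adjusted p = 0.502, and -0.065 after rescaling).

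Of the 5 box H/ACA proteins Nhp2 and Nop10 rose in CD93-negative cells (40%, against 18.7% of all tested genes). Nhp2, a core protein of the particle, was at 22.8, 30.6 and 25.6 against 37.04, 47.6 and 46.8 FPKM (log2 change 0.71, SE 0.15, adjusted p = 0.00488). Nop10, the smallest core protein, was at 44.3, 49.8 and 44.9 against 59.9, 59.04 and 61.8 FPKM (log2 change 0.37, adjusted p = 0.0445), and did not pass after rescaling (log2 change 0.15, adjusted p = 0.128). Dkc1, the pseudouridine synthase, was at 19.1, 26.3 and 24.3 against 32.7, 29.1 and 32.5 FPKM (log2 change 0.43, adjusted p = 0.0501), and passed after rescaling (log2 change 0.22, adjusted p = 0.0279). In these 3 genes every DKO library was above every control library, and this was so as well in Gar1, a core protein, and Nolc1, a snoRNP chaperone. Across all tested genes this was so in 31.5%. The log2 changes of Gar1 and Nolc1, 0.39 and 0.43, did not pass (adjusted p = 0.0762 and 0.0812).

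The 12 small subunit factors held 1 call in CD93-negative cells (8.33%), a smaller share than the 18.7% of all tested genes called higher. The call was Noc4l, a nucleolar complex protein that works with Nop14. It was at 11.3, 12.6 and 12.8 against 18.5, 22.2 and 20.4 FPKM, without overlap (log2 change 0.69, SE 0.13, adjusted p = 0.00241). Nop14 itself had a log2 change of 0.095 (adjusted p = 0.711). Nob1, the nuclease that makes the last cut of small subunit RNA, was at 13.3, 18.4 and 17.2 against 21.3, 21.9 and 22.3 FPKM and passed after rescaling (log2 change 0.20, adjusted p = 0.0175). The smallest change was that of Utp20, a component of the small subunit processome, at 6.43, 7.74 and 7.85 against 8.202, 7.97 and 7.33 FPKM, with overlap (log2 change 0.087, adjusted p = 0.709, and -0.11 after rescaling). The other factors, Imp3, Imp4, Rrp9, Rrp12, Utp15, Utp18, Wdr43 and Wdr75, had log2 changes of 0.13 to 0.34, and none passed limma's adjusted p before or after rescaling.

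Of 14 measured large subunit factors 4 rose in CD93-negative cells (28.6%, against 18.7% of all tested genes). Pes1 and Wdr12 belong to a complex with Bop1 that large subunit processing requires. Pes1 was at 19.2, 24.6 and 23.3 against 32.01, 32.2 and 29.996 FPKM (log2 change 0.48, adjusted p = 0.0225). Wdr12 was at 4.06, 4.84 and 5.97 against 6.79, 6.65 and 8.87 FPKM (log2 change 0.50, adjusted p = 0.0423). Bop1 was at 17.8, 23.5 and 22.9 against 26.7, 25.7 and 26.8 FPKM (log2 change 0.30, adjusted p = 0.144). None of these 3 genes overlapped between the groups, where every DKO library was above every control library in 31.5% of all tested genes. Nop16 and Gnl3, nucleostemin, rose by 0.47 and 0.46 on the log2 scale (adjusted p = 0.0417 and 0.0287). Wdr12 and Nop16 did not pass after rescaling (adjusted p = 0.0827 and 0.0599), while Rrp1b then passed (log2 change 0.21, adjusted p = 0.0382). Noc3l had the smallest change of all members, at 5.93, 8.41 and 8.75 against 7.68, 7.6005 and 8.12 FPKM (log2 change 0.033, adjusted p = 0.913). Without control replicate 1, the lowest library in 39 of 41 members, its change was -0.12. In GENCODE M21, exons of Bop1, Dkc1, Gnl3, Nhp2, Nop56, Pes1, Rrp1b and Wdr12 overlap a gene on the other strand, and whether reads were counted by strand is not given in the sources used here.

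**Figure D2:**
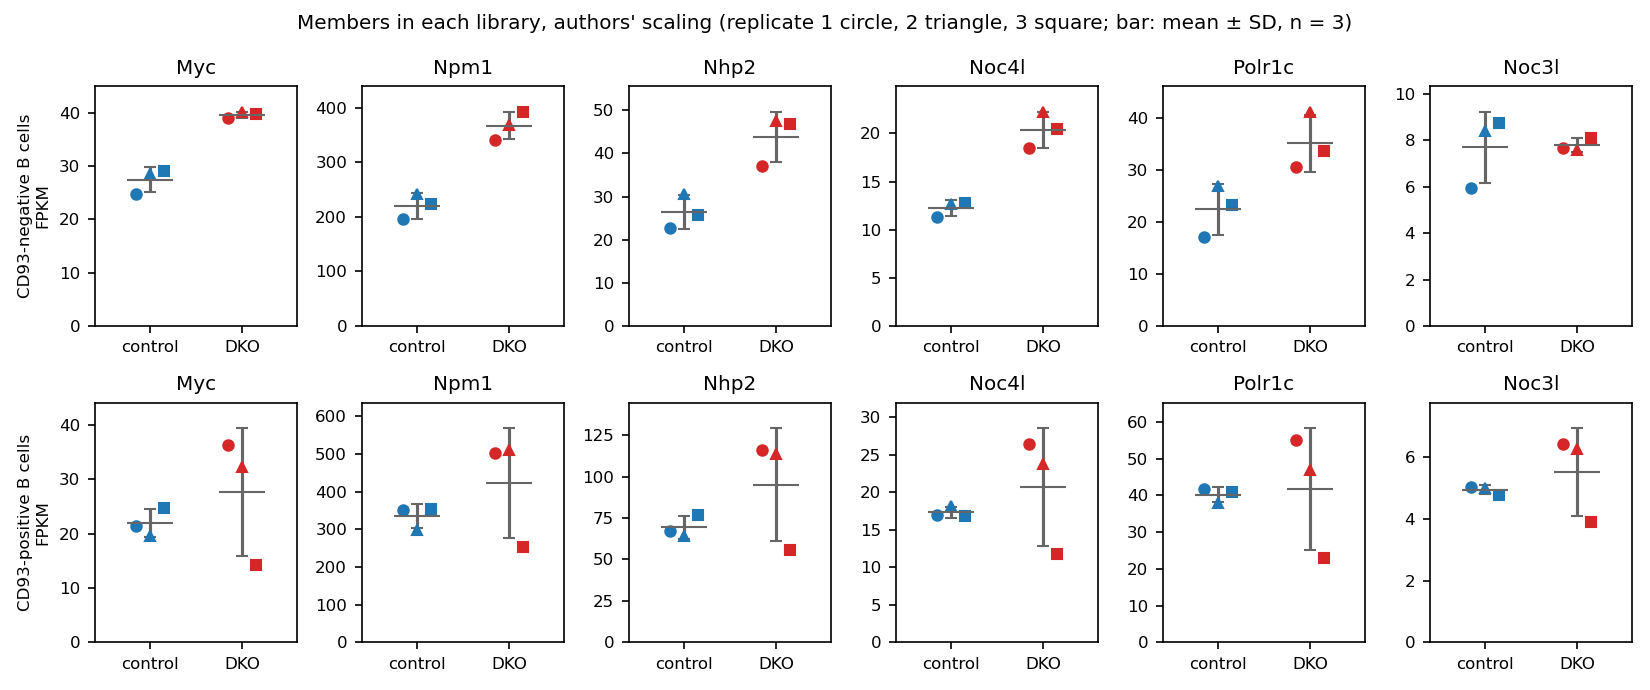
FPKM (y axis, from 0) of 6 members in each library as deposited, CD93-negative cells above and CD93-positive cells below; points are libraries and bars are mean ± SD (n = 3). In CD93-negative cells Myc, Npm1, Nhp2, Noc4l and Polr1c do not overlap between groups, and in CD93-positive cells DKO replicate 3 (square) lies below the other DKO libraries in each of the 6.

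In CD93-positive cells 0 of 41 members were called with the authors' scaling, and after rescaling 19 of 41 rose and 0 fell. With the authors' scaling, the SE of the members' log2 changes ran from 0.32 (Rrp1b) to 0.44 (Npm1). Changes of the size seen after rescaling can thus be missed, and 0 calls cannot exclude them. As deposited, limma gave 0 at adjusted p and 0 at an unadjusted p under 0.05, where 1.67% of all tested genes were called higher and 1.54% lower. No member's groups were apart, where every DKO library was above every control library in 2.94% of all tested genes and below in 19%. DKO replicate 3 was the lowest of 6 libraries in 39 of 41 members, while DKO replicates 1 and 2 were both above every control library in 34 of 41. Without DKO replicate 3, 4 members passed (Gnl3, Mrto4, Myc and Nhp2) and all 41 changes were above 0. In that fit 4.79% of all tested genes were called higher. After rescaling, the 19 (46.3%) stood against 11.4% of all tested genes called higher and 9.34% lower. Every DKO library was then above every control library in 32 of 41 members, against 20.9%, and below in 0, against 22%. The median rescaled change was 0.31, and 39 of 41 were above 0, all but Polr1a and Imp3.

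The rescaled count in CD93-positive cells moved with single libraries and with sex. It was 8 without control replicate 1, 7 without control replicate 2, 13 without control replicate 3, 10 without DKO replicate 1, 6 without DKO replicate 2 and 13 without DKO replicate 3. In the same order, 5.08%, 4.92%, 10.1%, 6.9%, 5.87% and 8.48% of all tested genes were called higher. Npm1, Nhp2, Rrp9 and Mrto4 passed in all 6. With sex as a covariate as well, 5 members passed, Gnl3, Ncl, Nhp2, Nolc1 and Npm1, where 3.54% of all tested genes were called higher. All 41 changes were then above 0, where the median change of all tested genes was -0.020. That fit rests on control replicate 3 as the only control library of the sex of the DKO libraries. These rescaled alternatives, other than the one without DKO replicate 3, were chosen after the data were seen.

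Myc in CD93-positive cells was at 21.4, 19.7 and 24.8 against 36.4, 32.3 and 14.2 FPKM. The groups overlapped because of DKO replicate 3 (log2 change 0.22, SE 0.38, limma adjusted p = 0.858). After rescaling they did not overlap and Myc passed (log2 change 0.45, SE 0.11, adjusted p = 0.0327). All 3 nucleolar chaperones passed after rescaling, where 11.4% of all tested genes were called higher. Npm1 was at 351, 299 and 355 against 503, 511 and 255 FPKM as deposited (rescaled log2 change 0.52, adjusted p = 0.00419). Ncl was at 60.98, 56.3 and 55.1 against 76.8, 81.7 and 44.1 FPKM (rescaled log2 change 0.42, adjusted p = 0.0211). Npm3 was at 68.5, 64.9 and 75.6 against 90.9, 101 and 44.6 FPKM (rescaled log2 change 0.34, adjusted p = 0.033). In each of these genes the controls lay between DKO replicate 3 and the other DKO libraries as deposited.

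Of 8 snoRNP proteins 5 rose in CD93-positive DKO cells after rescaling, where 11.4% of all tested genes were called higher. Nhp2 had the smallest adjusted p of the members, at 67.2, 63.9 and 76.95 against 116, 113 and 55.8 FPKM as deposited (rescaled log2 change 0.62, adjusted p = 0.00224). Nop58 and Nop56 rose by 0.43 and 0.25 (adjusted p = 0.0129 and 0.0313), and Nolc1 and Nop10 by 0.45 and 0.37 (adjusted p = 0.0181 and 0.0213). Fbl, at 146, 106 and 136 against 174, 167 and 80.9 FPKM, did not pass (rescaled log2 change 0.30, adjusted p = 0.0693). Dkc1 (0.31, adjusted p = 0.0921) and Gar1 (0.039, adjusted p = 0.806) did not pass either. Of the 3 RNA polymerase I subunits 0 passed limma's adjusted p after rescaling. Polr1c was at 41.8, 37.9 and 40.8 against 55.1, 46.8 and 23.1 FPKM (rescaled log2 change 0.20, adjusted p = 0.154), and Polr1b and Polr1a had rescaled changes of 0.36 and -0.046 (adjusted p = 0.0881 and 0.739).

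After rescaling 11.4% of all tested genes were called higher in CD93-positive cells. Among subunit assembly factors, 3 of 12 for the small (25%) and 7 of 14 for the large subunit (50%) rose. The former were Rrp9, a protein of the U3 snoRNP, with a log2 change of 0.45 (adjusted p = 0.0113), Noc4l with 0.40 (adjusted p = 0.0397) and Utp18 with 0.31 (adjusted p = 0.0467). The latter were Gnl3, Mrto4, Wdr12, Nop16, Nop2, Ebna1bp2 and Ddx21, with changes of 0.25 to 0.67. Gnl3 had the largest, at 18.3, 14.98 and 13.6 against 29.8, 23.6 and 13.7 FPKM as deposited (rescaled log2 change 0.67, adjusted p = 0.0217). Mrto4, which prepares the stalk of the large subunit, was at 29.04, 26.98 and 31.2 against 49.5, 46.8 and 21.8 FPKM (0.58, adjusted p = 0.00556). Pes1, called in CD93-negative cells, was at 40.3, 38.9 and 34.8 against 42.3, 43.6 and 22.04 FPKM here (rescaled log2 change 0.10, adjusted p = 0.52). Noc3l was at 5.03, 5.02 and 4.77 against 6.42, 6.26 and 3.89 FPKM (rescaled log2 change 0.31, adjusted p = 0.0911).

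Shares and ranks within a library do not depend on its scaling. In CD93-negative cells the summed FPKM of the 41 members was 0.271%, 0.304% and 0.306% of the library total in control and 0.331%, 0.333% and 0.337% in DKO libraries. Without Npm1, the most abundant member, it was 0.214%, 0.243% and 0.245% against 0.251%, 0.251% and 0.252%, without overlap but by a narrow margin. In CD93-positive cells it was 0.269%, 0.270% and 0.289% against 0.354%, 0.359% and 0.348%, so that DKO replicate 3 lay with the other DKO libraries. With red cell genes taken out of the total, the shares were 0.301%, 0.302% and 0.297% against 0.362%, 0.369% and 0.352%. By rank among all genes of the library, 18 of 41 members were higher in every DKO than in every control CD93-negative library, against 22.1% of all tested genes, and 30 of 41 in CD93-positive libraries, against 18%. In neither table was a member lower in every DKO library by rank, where 29.5% and 23.1% of all tested genes were.

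**Figure D3:**
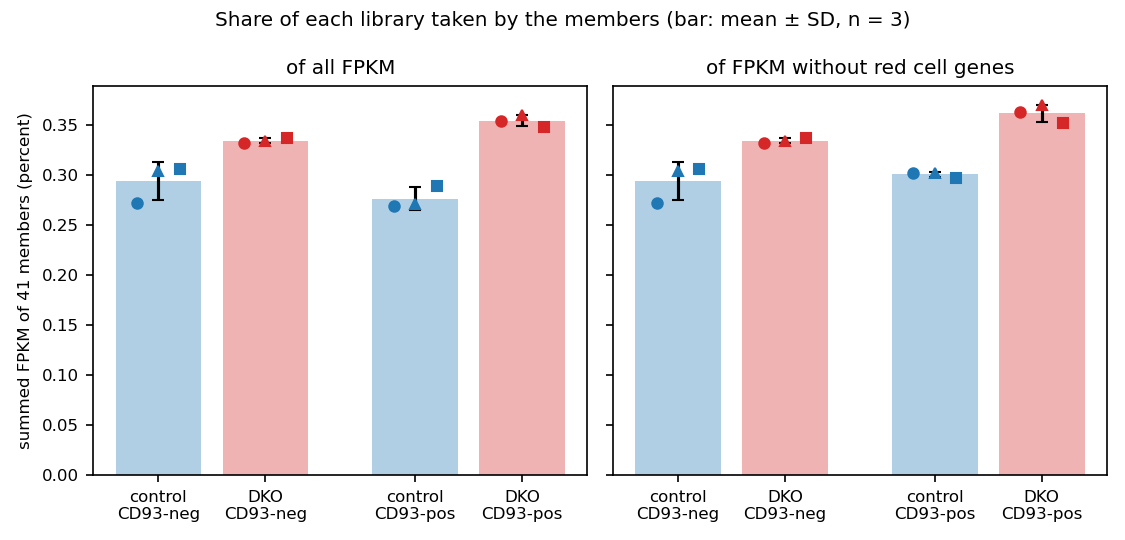
Summed FPKM of the 41 members as a percent of the library total (y axis, from 0), of all FPKM on the left and without red cell genes on the right; points are libraries and bars are mean ± SD (n = 3). The DKO libraries lie above the control libraries in both populations and both panels.

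The comparisons in CD93-negative and CD93-positive cells used separate libraries and controls. After rescaling, 7 members passed in both, Myc, Ncl, Npm1, Npm3, Nhp2, Noc4l and Gnl3, which is 53.8% of the 13 called in CD93-negative and 36.8% of the 19 called in CD93-positive cells. Both changes were above 0 in 30 of 41 members, and 16 passed in neither. Of all tested genes, 17.1% and 11.4% were called higher after rescaling in CD93-negative and CD93-positive cells. Their median changes were -0.083 and -0.011. The shares of all tested genes that passed or were above 0 in both were not computed. The overlap is therefore not shown to be particular to the members. Across the 41 genes, which are not independent replicates, the rescaled changes in the populations had Pearson's r = 0.38 and Spearman's rho = 0.38. Differences between the populations were not tested, since the tables were scaled separately.

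**Figure D4:**
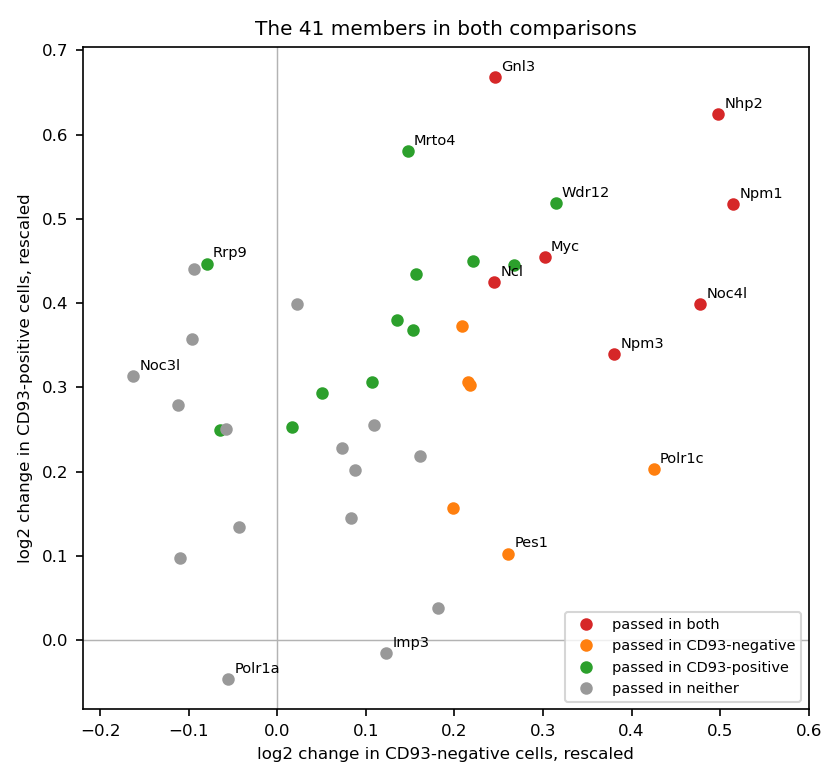
Rescaled log2 change of each of 41 members in CD93-negative (x axis) and CD93-positive cells (y axis), coloured by the comparison in which it passed an adjusted p of 0.05. The 7 members that passed in both lie to the upper right, with Npm1 at 0.51 and 0.52, and Noc3l lies at -0.16 and 0.31.

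Other genes of the pathway were read from 5 further lists, RNA polymerase I machinery, small and large subunit factors, snoRNP assembly factors and the RNA exosome. Of 117 tested genes 13 rose (11.1%, against 18.7% of all tested genes) and 0 fell in CD93-negative cells, with a median log2 change of 0.20 against 0.11 for all genes. After rescaling 9 rose (7.69%, against 17.1%) and 11 fell (9.40%, against 23.8%), with a median of -0.015 against -0.083. The largest called change was that of Polr1d, a further subunit shared with RNA polymerase III, at 78.2 ± 9.43 against 125 ± 7.65 FPKM (log2 change 0.68, limma adjusted p = 0.0035). Mphosph6, which binds the exosome, was at 7.47 ± 0.791 against 12.2 ± 1.9996 FPKM (log2 change 0.64). Emg1, Bysl, Rsl24d1, Lyar, Ruvbl1 and Nhp2l1 rose by 0.45 to 0.48. Without DKO replicate 3 the count was 1, without DKO replicate 2 it was 2, without DKO replicate 1 or control replicate 3 it was 4, and without control replicate 2 it was 26. In the same order, 11.4%, 13.1%, 15%, 15.5% and 23.2% of all tested genes were called higher. In CD93-positive cells 0 of 117 passed limma's adjusted p as deposited (0 at an unadjusted p under 0.05). After rescaling 21 rose (17.9%, against 11.4% of all tested genes) and 0 fell, with a median of 0.20.

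Of the Myc network, genes for partners and antagonists of Myc, Max and Mxd3 rose among 10 tested in CD93-negative cells, a share (20%) near the 18.7% of all tested genes called higher. Max, the partner of Myc on DNA, was at 28.7, 35.8 and 36.6 against 48.9, 49.6 and 52.4 FPKM (log2 change 0.57, limma adjusted p = 0.00881). Mxd3, which binds Max in place of Myc, was at 2.35, 2.71 and 3.62 against 7.31, 9.84 and 9.93 FPKM (log2 change 1.37, adjusted p = 1.08e-04). The groups overlapped in neither gene. After rescaling Mnt and Mga, other Max partners chosen for mention after their values were seen, were lower (log2 changes -0.24 and -0.48), a share near the 23.8% of all tested genes called lower. In CD93-positive cells 0 of 9 passed limma's adjusted p as deposited (2 at an unadjusted p under 0.05), and after rescaling Mnt and Zbtb17, also chosen so, were lower (-0.48 and -0.35), where 9.34% of all tested genes were. Max was at 51.7 ± 4.91 against 45.2 ± 18.4 FPKM there.

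Of 23 Myc targets with other functions, 19 rose and 0 fell in CD93-negative cells (median log2 change 0.59), and 18 rose after rescaling. These were 82.6% and 78.3%, against 18.7% and 17.1% of all tested genes called higher. Slc7a5, an amino acid transporter, was at 5.69, 6.29 and 7.77 against 15.5, 15.7 and 15.5 FPKM (log2 change 1.14). Nme2, a nucleoside diphosphate kinase, was at 119.6, 173 and 133 against 264, 312 and 298 FPKM (log2 change 1.05). In CD93-positive cells 0 of 23 passed limma's adjusted p as deposited, and 1 had an unadjusted p under 0.05. This was Tfrc, named after its values were seen, which was lower, at 84.6 ± 23.1 against 45.9 ± 17.4 FPKM (log2 change -0.91). Its rescaled change was -0.67 (limma adjusted p = 0.0978). After rescaling 17 of the 23 rose there, Nme2 among them (0.85, adjusted p = 0.00115). Of all tested genes 1.67% and 11.4% were called higher there. Slc7a5 was at 46.6, 41.6 and 25.9 against 39.9, 35.3 and 15.3 FPKM there (rescaled log2 change -0.16, adjusted p = 0.689). Cytosolic ribosomal protein genes rose in 70 of 79 in CD93-negative cells, in 60 of 79 after rescaling, and in CD93-positive cells in 0 of 79 as deposited and 44 of 79 after rescaling.

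Proliferation genes moved beside the members in CD93-negative cells, where 19 of 21 rose (90.5%, against 18.7% of all tested genes). Their summed level was 218 to 296 FPKM in control and 622 to 668 FPKM in DKO libraries. In CD93-positive cells it was 1509 to 1727 FPKM in control and 1151 to 1896 FPKM in DKO libraries. There 7 of 21 rose after rescaling (33.3%, against 11.4%). Plasma cell genes rose in 8 of 10 tested in CD93-negative cells (80%, against 18.7% of all tested genes). Their summed levels were 365 to 476 FPKM in control and 984 to 1093 FPKM in DKO libraries. As deposited they rose in 6 of 10 in CD93-positive cells (60%, against 1.67%), with 510 to 706 and 1596 to 2871 FPKM. After rescaling 8 rose there (80%, against 11.4%) and 1, Irf4, fell (log2 change -0.27, limma adjusted p = 0.029). Igj alone was at 34.7 ± 7.01 against 923 ± 230 FPKM there. What part cycling or plasma cells had in the members' levels was not tested.

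**Figure D5:**
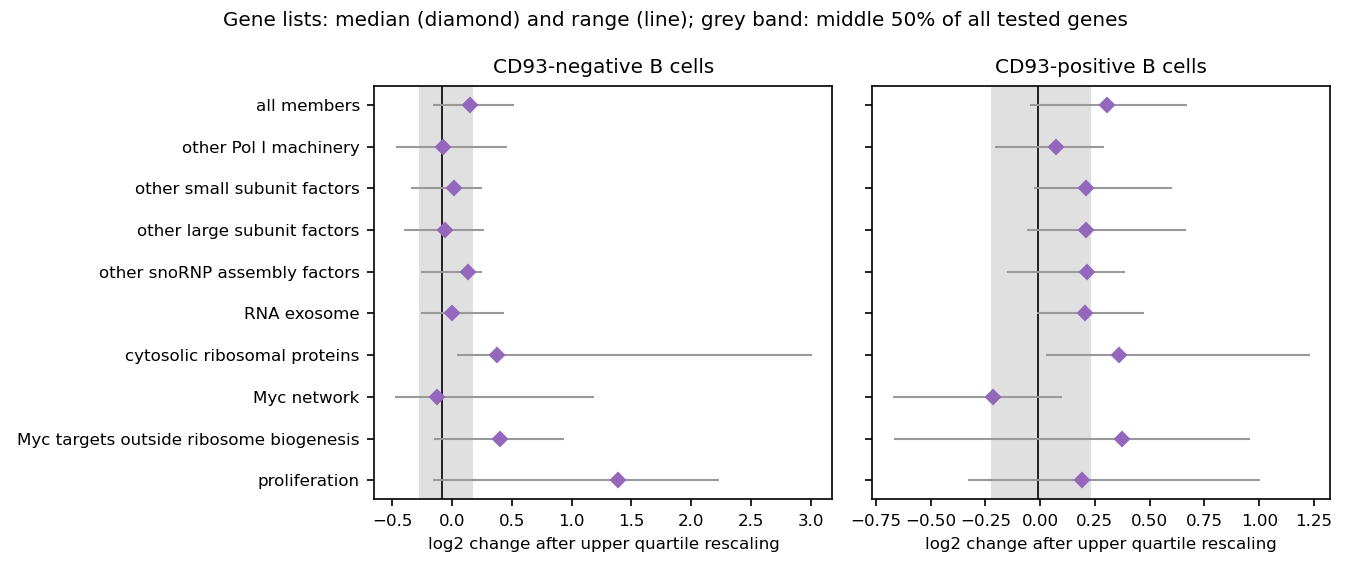
Rescaled log2 change (x axis) of gene lists in CD93-negative (left) and CD93-positive (right) cells; diamonds are medians, lines run from the lowest to the highest gene of a list, the grey band holds the middle 50% of all tested genes and the black line is their median. The members have medians of 0.15 and 0.31, and proliferation genes have medians of 1.39 and 0.19.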

How the data were processed

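The authors deposited FPKM values, 1 column per library. The tools named in the submitters' processing notes are TopHat2 2.0.8, Cufflinks 2.1.1 and Bowtie2 2.1.0, with the build mm9. Gene annotation and the treatment of shared reads are not given in the sources used here. The library kit kept strand, per the labels' protocols. For CD93-positive cells, 6 further columns repeated those used, cell for cell, and were left out. Within each table, log2 of FPKM plus a pseudocount of 1 was fitted with limma (3.58.1, R 4.3.3; mean-variance trend, no covariates, two-sided), for genes reaching 1 FPKM in 3 libraries, with Benjamini-Hochberg adjustment over all of them. In CD93-positive cells limma's prior degrees of freedom were infinite with the authors' scaling, so genes of like level shared 1 spread there. The members and lists were chosen with earlier results of these data known, and the cytosolic ribosomal protein list by name pattern after the data were seen. Named by rule were Myc, Tet2, Tet3, every member of role groups of 5 or fewer, the 2 largest and the 1 smallest change of other groups in CD93-negative cells, up to 10 members called in CD93-positive cells (none was), members not in a table, and up to 2 called genes of each pathway list. Other members were named after their values were seen, as those called or those that passed after rescaling. Scripts were tested on simulated data. Same-numbered libraries did not deviate together (correlations of deviations -0.11 to 0.024 for CD93-negative cells, -0.14 to 0.17 for CD93-positive), so numbers were not treated as pairs. Alternatives were pseudocounts of 0.1 and 5, no filter or one of 5 FPKM, upper quartile and quantile normalization, no trend, sample weights, a replicate block, sex and left-out libraries.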

Additional observations from a re-analysis of the deposited data

Results flagged for a closer look

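Noc3l, a large subunit factor, moved in opposite directions in the 2 populations after upper quartile rescaling: every DKO library was below every control library in CD93-negative cells (log2 change -0.16) and above every control library in CD93-positive cells (log2 change 0.31). Neither change passed the adjusted p of limma, and the difference between the populations was not tested. With the authors' scaling the groups overlapped in both. Groups of 3 libraries were too small for a test of single outlying libraries.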

How the results depend on the processing

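In CD93-negative cells 12 members and 13 other pathway genes were called. The counts were 6 and 5 with no filter, where more genes were tested, 4 and 5 with sample weights, 13 and 20 after upper quartile rescaling and 14 and 20 after quantile normalization. In the same order, 7.42%, 12.4%, 17.1% and 17.2% of all tested genes were called higher, against 18.7% as deposited. In CD93-positive cells both counts were 0. They were 19 and 21 after upper quartile rescaling, 17 and 20 after quantile normalization and 2 and 1 with sample weights. With sex and rescaling they were 5 and 2. In the same order, 11.4%, 9.8%, 4.9% and 3.54% of all tested genes were called higher, against 1.67% as deposited. With sample weights the members' share was near that of all tested genes. Other pseudocounts, a filter of 5 FPKM and no trend left all 4 counts within 1.5 times. The cause of the other differences was not tested. Leaving out 1 library gave 4 to 20 members and 1 to 26 other pathway genes in CD93-negative and 0 to 4 and 0 to 1 in CD93-positive cells; with rescaling, 8 to 13, 12 to 17, 6 to 13 and 3 to 18. In the rescaled CD93-positive fits the 2 counts were 8 and 5 without control replicate 1, 7 and 3 without control replicate 2, 13 and 18 without control replicate 3, 10 and 9 without DKO replicate 1, 6 and 4 without DKO replicate 2 and 13 and 10 without DKO replicate 3. The replicate number was also used as a block, which the libraries' deviations did not bear out as a pairing. With it, 16 members and 20 other pathway genes were called in CD93-negative and 0 and 0 in CD93-positive cells. In these fits 22.2% and 1.23% of all tested genes were called higher. With rescaling as well the counts were 11, 15, 6 and 2, where 14.7% and 4.81% of all tested genes were called higher. Changes that turned under rescaling had the same values with the block. After rescaling 10 of 41 members turned from above to below 0 in CD93-negative cells and 10 from below to above 0 in CD93-positive cells. With 1 library left out, 36 (without control replicate 1) to 41 members were above 0 in CD93-negative and 13 (without DKO replicate 1) to 41 (without DKO replicate 3) in CD93-positive cells. Values of turned changes are given only for the genes named by rule. In CD93-negative cells they were Polr1a -0.055, Polr1b -0.096, Nop56 -0.065, Utp20 -0.11 and Noc3l -0.16 after upper quartile rescaling, Polr1a -0.0023, Polr1b -0.032, Nop56 -0.12, Utp20 -0.038 and Noc3l -0.097 after quantile normalization, and Polr1b -0.023 and Noc3l -0.024 with sample weights. In CD93-positive cells they were Polr1c 0.20, Gar1 0.039, Nob1 0.16, Utp20 0.098 and Pes1 0.10 after upper quartile rescaling, Polr1c 0.18, Gar1 0.034, Nob1 0.18, Utp20 0.10 and Pes1 0.077 after quantile normalization, Polr1c 0.33, Polr1a 0.013, Nob1 0.28, Utp20 0.28, Pes1 0.030 and Tet2 0.079 with sample weights, Npm3 -0.023, Fbl -0.026, Nop56 -0.13 and Nop10 -0.076 with sex as a covariate, and Polr1c 0.27, Nob1 0.21, Utp20 0.066 and Pes1 0.12 after rescaling without DKO replicate 3. None of these turned changes was called as deposited. With 1 library left out, turned changes of genes named by rule ranged in CD93-negative cells, lowest to highest, over Noc3l -0.12 to 0.12. With 1 library left out, turned changes of genes named by rule ranged in CD93-positive cells, lowest to highest, over Dkc1 -0.073 to 0.31, Fbl -0.14 to 0.41, Gar1 -0.33 to 0.0036, Myc -0.023 to 0.63, Nob1 -0.29 to 0.26, Noc4l -0.041 to 0.51, Nop10 -0.0042 to 0.38, Nop56 -0.16 to 0.34, Npm3 -0.12 to 0.46, Pes1 -0.30 to 0.17, Polr1a -0.42 to 0.038, Polr1b -0.019 to 0.31, Polr1c -0.28 to 0.33 and Utp20 -0.31 to 0.12. Depth is unknown in FPKM, so no floor can be given for low genes, and 3 libraries a group limit every test.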

Other observations

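Levels of members in control cells differed between the tables, which were scaled separately, so these values are given without a test. Nhp2 was at 26.3 FPKM in CD93-negative and 69.3 FPKM in CD93-positive controls (means of 3 libraries each), Npm3 at 27.5 and 69.6, Nop10 at 46.3 and 101, and Imp3 at 40.2 and 82.2. Nop14 was at 13.5 and 8.58, Noc3l at 7.697 and 4.94, and Utp20 at 7.34 and 5.37. Myc was at 27.4 and 21.96 FPKM.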
